A study of Mus musculus with 10 samples.

Results

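The 88 genes for the proteins of the cytosolic ribosome were taken, by symbol, from the 52459 genes of an RNA sequencing table of mouse liver tumors. They are the genes named Rpl or Rps with a number, together with Rpsa, Rplp0, Rplp1 and Rplp2, and 52 belong by name to the large subunit and 36 to the small subunit. The study compared 5 *MYC*-HCC with 5 *MYC*/*Twist1*-HCC tumors, where HCC is hepatocellular carcinoma, to ask how *Twist1* changes gene expression in *MYC*-driven liver cancer. *MYC*-HCC came from LAP-tTA/TRE-*MYC* mice. *MYC*/*Twist1*-HCC came from mice that also carried TRE-*Twist1*/Luc, a transgene for *Twist1* and firefly luciferase. Both groups shared the liver-enriched LAP promoter, which drives the tetracycline transactivator tTA, the *MYC* transgene, the FVB/N background and doxycycline, given to keep the transgenes off until the mice were adult. The tumors were taken at morbidity, and the age of each animal at that point was not given in the sources used here. The paper reports shorter survival of *MYC*/*Twist1* mice than of *MYC* mice, so the groups may differ in age. An effect of age cannot be told apart from one of *Twist1* here.

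Values are FPKM, the number of fragments of a gene scaled by the length of its model and by the depth of the library. The depth estimated from the table was 19.2 to 23.8 M reads per library, at which 1 read on a model of 1 kb is 0.042 to 0.052 FPKM. The *MYC*-HCC libraries are numbered by column, because their columns share one heading. *Twist1* ranged from 0 to 0.29 FPKM over the *MYC*-HCC libraries, and from 1.62 to 77.2 FPKM over those of *MYC*/*Twist1*-HCC. *Myc* was at 204 to 390 and at 225 to 357 FPKM, with a log2 difference of -0.21 (adjusted p = 0.63, limma). *MYC*-HCC library 4 stood apart from the other libraries in the fit and had the lowest quality weight, 0.18, against 0.60 to 4.02 in the others, so counts of calls are also given without it. That the samples came from separate animals is not stated sample by sample, so the p-values measure the spread between these tumors.

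Ribosomal proteins and ribosomal RNA form the small subunit, which reads the mRNA, and the large subunit, which joins the amino acids, with nearly all of the proteins present once per ribosome. The genes are highly transcribed in growing cells, many carry a C and T tract at the transcription start that places their mRNAs in the TOP class regulated by mTOR, and MYC is known to raise ribosome production. Most have intronless copies in the genome, called processed pseudogenes, whose sequence is close to that of the parent mRNA.

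Of the 88 genes, 80 passed the filter on low values, by which a gene had to reach 0.5 FPKM in 5 or more libraries. None of the 80 passed limma's test between the groups at an adjusted p under 0.05. *Twist1*, the transgene that sets the groups apart, did not pass it either (log2 difference 5.15, adjusted p = 0.091, limma). A gene that did not pass is therefore not shown to be unchanged. Over the whole table, where 12146 genes were tested, 3 (0.0247%) passed with higher values in *MYC*/*Twist1*-HCC and 0 (0%) with lower values. At an unadjusted p under 0.05, 3 ribosomal protein genes had higher values and 7 had lower values, where 7.83% and 8.51% of all genes tested were. Their median log2 difference was -0.27 against -0.04 over all genes tested, and 64 of the 80 (80%) had a difference below 0 against 54.1% of all genes tested. The median was -0.25 for the 47 large subunit genes and -0.31 for the 33 small subunit genes. Of the 80, 61 lay within 0.5 log2 units of 0, and the median half-width of the 95% interval was 0.59, so for most genes a change of this size was not detectable at this spread. In bulk tumor RNA, fewer cells of a type and less RNA per cell cannot be told apart.

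Rpl13 and Rps10 had the smallest p among the genes with higher values in *MYC*/*Twist1*-HCC, and their groups did not overlap. Groups did not overlap with higher values in *MYC*/*Twist1*-HCC for these 2 of the 80 genes and for 2.35% of all genes tested, and with lower values for 1 of the 80, Rpl23a, and for 1.67%. Rpl13 (ENSMUSG00000000740.12) encodes a large subunit protein and lies at chr8:123102350-123105244 of GRCm38. It was at 8.77, 9.77, 12.3, 8.43 and 15.3 FPKM in *MYC*-HCC libraries 1 to 5. Libraries 1 to 5 of *MYC*/*Twist1*-HCC had 28.45, 18.2, 40.1, 20.9 and 21.65 FPKM. The lowest *MYC*/*Twist1*-HCC library was above the highest *MYC*-HCC library. The log2 difference was 1.21 (95% interval 0.68 to 1.75, adjusted p = 0.091, limma).

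Rps10 (ENSMUSG00000052146.16, chr17:27630418-27636669) encodes a small subunit protein that in humans is mutated in some patients with Diamond-Blackfan anemia. It was at 16.9, 16.0, 24.8, 13.2 and 21.6 FPKM in *MYC*-HCC libraries 1 to 5. The *MYC*/*Twist1*-HCC libraries had 29.7, 29.9, 45.6, 38.1 and 36.4 FPKM, all above the *MYC*-HCC libraries. The log2 difference was 0.97 (95% interval 0.54 to 1.40, adjusted p = 0.091, limma). Only 19.7% of the 50-base windows of the Rpl13 transcript and 7.57% of those of Rps10 occur in no other gene of GENCODE vM21. With windows of 100 bases these shares were 21.1% and 10.5%, so that reads from them can be shared with other genes. The named pseudogenes of Rpl13 summed to 0 to 0.28 FPKM per library. Those of Rps10 summed to 1.17 to 4.75 FPKM, and with them added its log2 difference was 0.89. Windows of Rpl13 occur in 15 other genes, and it has 5 named pseudogenes, so their sum need not cover all shared reads. Each FPKM is scaled by the length of its own model, so a sum of FPKM is not a sum of reads.

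The other genes on this side were smaller in their difference and overlapped between the groups. Rpl37a, a zinc finger protein of the large subunit, was at 33.1, 29.8, 46.99, 24.4 and 35.5 FPKM in *MYC*-HCC, against 41.1, 40.3, 58.3, 49.3 and 52.3 FPKM in *MYC*/*Twist1*-HCC. Its log2 difference was 0.52 (95% interval 0.11 to 0.93, adjusted p = 0.23), and library 3 of *MYC*-HCC lay among the *MYC*/*Twist1*-HCC values. Rpsa, the small subunit protein also known as the laminin receptor precursor, differed by 0.54 log2 units with an SE of 0.25 (adjusted p = 0.31, limma). Rpl19 and Rps20 had log2 differences of 0.34 and 0.25, with adjusted p of 0.48 and 0.50. When the FPKM of named pseudogenes were added, the difference of Rpsa was 0.03 and that of Rpl19 was -0.23.

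Rpl23a, which lies at the polypeptide exit of the large subunit, had the smallest p among the genes with lower values in *MYC*/*Twist1*-HCC. It was at 4.34, 4.68, 6.96, 2.20 and 2.84 FPKM in *MYC*-HCC libraries 1 to 5, and the values in *MYC*/*Twist1*-HCC were 1.05, 1.09, 1.87, 2.13 and 1.12 FPKM. All *MYC*/*Twist1*-HCC libraries were below the lowest *MYC*-HCC library, which was library 4. The log2 difference was -1.42 (95% interval -2.14 to -0.71, adjusted p = 0.12, limma). Of the 50-base windows of Rpl23a, 14.3% occur in no other gene. Its windows occur in 29 other genes, and it has 14 named pseudogenes. With the FPKM of these pseudogenes added, the log2 difference was -1.18 and the groups overlapped. The sum was 3.15 FPKM in library 4 of *MYC*/*Twist1*-HCC, above the 2.5 FPKM in library 4 of *MYC*-HCC.

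Rpl38, a large subunit protein needed in mouse embryos for the translation of Hox mRNAs, split the *MYC*-HCC libraries. It was at 46.1, 52.2 and 82.3 FPKM in libraries 1 to 3, and at 11.6 and 18.1 FPKM in libraries 4 and 5. It was at 10.6, 10.9, 14.6, 14.0 and 7.15 FPKM in *MYC*/*Twist1*-HCC, so that libraries 4 and 5 of *MYC*-HCC lay near the other group and libraries 1 to 3 lay far above it. The log2 difference was -1.58 (95% interval -2.65 to -0.52, adjusted p = 0.18).

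Rps16, whose tail reaches the tRNA in the small subunit, split in the same way. It was at 20.65, 32.6 and 32.8 FPKM in *MYC*-HCC libraries 1 to 3, and at 3.40 and 4.07 FPKM in libraries 4 and 5. The *MYC*/*Twist1*-HCC libraries were at 3.40, 4.09, 5.40, 4.93 and 3.14 FPKM. Its log2 difference was -1.59 ± 0.64 (SE, adjusted p = 0.26, limma), and the values of libraries 4 and 5 lay within the *MYC*/*Twist1*-HCC range. Rps25, a small subunit protein used in internal initiation, was at 36.9, 38.7, 54.5, 14.7 and 21.1 FPKM in *MYC*-HCC, against 11.6, 10.4, 16.2, 19.9 and 12.2 FPKM in *MYC*/*Twist1*-HCC. Library 4 was again the lowest of its group and lay within the *MYC*/*Twist1*-HCC range. The log2 difference of Rps25 was -1.13 (95% interval -1.87 to -0.39, adjusted p = 0.18).

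Rpl36a, a large subunit protein, had a log2 difference of -1.16 (95% interval -1.86 to -0.45, adjusted p = 0.15). Rpl7l1, a paralog of Rpl7 that acts in large subunit assembly, had a small difference with a narrow interval, -0.34 (95% interval -0.61 to -0.06, adjusted p = 0.25). It was at 51.6 to 65.2 FPKM in *MYC*-HCC and at 41.0 to 55.1 FPKM in *MYC*/*Twist1*-HCC.

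**Figure D1:**
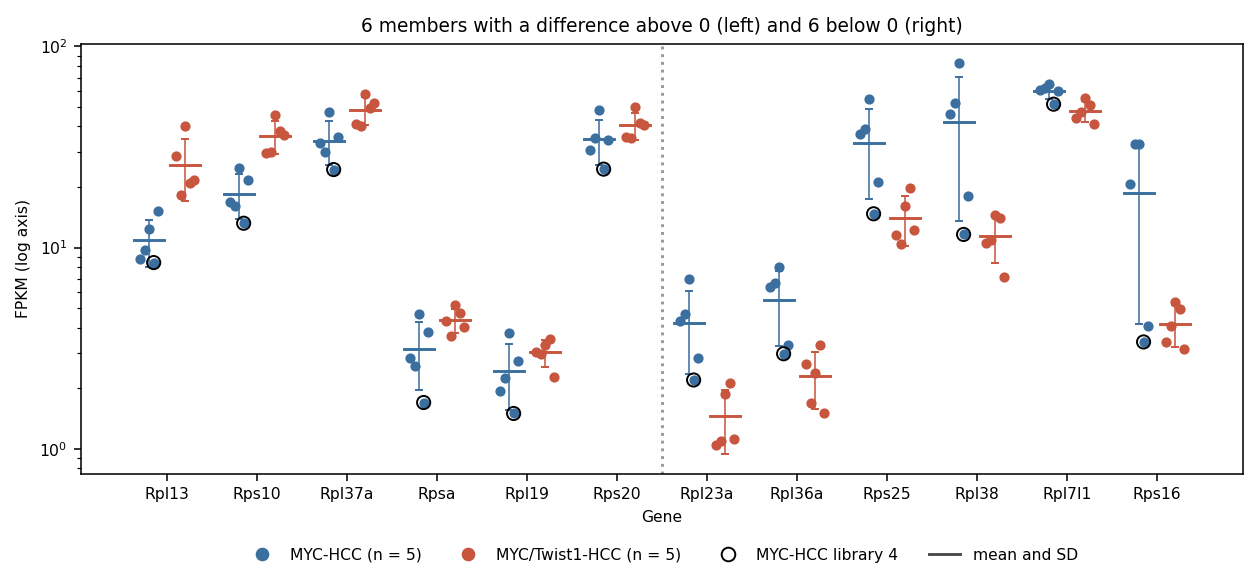
FPKM on a log axis of the 6 ribosomal protein genes with a difference above 0 and the 6 with a difference below 0 that had the smallest p, with *MYC*-HCC in blue and *MYC*/*Twist1*-HCC in red (points are libraries, lines the mean and SD, n = 5 each, circled points *MYC*-HCC library 4). The groups of Rpl13, Rps10 and Rpl23a do not overlap, and libraries 4 and 5 of *MYC*-HCC sit at 3.40 and 4.07 FPKM for Rps16, beside the *MYC*/*Twist1*-HCC libraries.

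The sequence at the transcription start is shown because a pyrimidine tract there marks TOP mRNAs. Of the 12 genes with the smallest p, 6 on each side of 0, it is given for the 9 with a single start in the RefSeq set, and Rpl19, Rps20 and Rpl23a are not shown. Each line gives 30 bases of the sense strand, from 15 before the RefSeq start on GRCm38.p6, with the longest run of C and T within these bases in capitals.
Rpl13: TTCCCTTTCgcctgattttgattggcgttt
Rps10: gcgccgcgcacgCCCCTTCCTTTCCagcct
Rpl37a: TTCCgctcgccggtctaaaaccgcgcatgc
Rpsa: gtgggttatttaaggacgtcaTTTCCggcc
Rpl38: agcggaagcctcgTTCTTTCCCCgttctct
Rps25: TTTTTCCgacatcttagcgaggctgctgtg
Rps16: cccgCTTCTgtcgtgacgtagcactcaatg
Rpl36a: gtgcacccaggcaccgcctataaaCTTCCg
Rpl7l1: gtgaggCTgcgcaagcgcagtagctgaagc
The longest run had 9 bases in Rpl13, 13 in Rps10, 10 in Rpl38, 7 in Rps25, 5 each in Rpsa, Rps16 and Rpl36a, 4 in Rpl37a and 2 in Rpl7l1. The annotated start base fell inside that run in Rps10 and Rpl38 and outside it in the other 7. Annotated starts can differ between sources. The GENCODE genes of Rps25, Rps10 and Rpl38 begin at chr9:44407139, at chr17:27636669 on the minus strand and at chr11:114668524, each before the window shown. The starts used in these tumors were not tested. A base outside the run therefore does not show that a tract is absent, nor a base inside it that a tract is used. These windows lie at chr8:123102335-123102364, at chr17:27635230-27635259 on the minus strand, at chr1:72711245-72711274, at chr9:120127751-120127780, at chr11:114668565-114668594, at chr9:44407699-44407728, at chr7:28350674-28350703, at chrX:134585639-134585668 and at chr17:46782642-46782671 on the minus strand, in the order of the lines.

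RefSeq promoters were matched for 63 of the 88 genes. Of these, 27 (42.9%) had a run of at least 8 C or T in the 30 bases around the start, against 13.9% of 27025 genes with a promoter in the same set. In the 300 bases from 250 before to 50 after the start, CCGGAAG, the core bound by ETS factors, occurred on either strand in 25 (39.7%) against 9.93%. CACGTG, the E-box that MYC with MAX can bind, occurred in 6 (9.52%) against 8.09%, and those were Rpl13a, Rpl14, Rpl19, Rpl23, Rpl34 and Rps19. AAGATGGC, a core of the factor YY1, occurred in 6 (9.52%) against 3.19%, and GCGCATGC, a core of NRF1, in 3 (4.76%) against 3.05%. A promoter could hold more than one of these motifs, and each was counted separately. A match describes these letters in this window only.

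Within each group the ribosomal protein genes varied from library to library. As the median over the 80 genes of the deviation from each gene's own median, in log2 units, *MYC*-HCC libraries 1 to 5 were at 0.26, 0.26, 0.67, -0.59 and -0.02. *MYC*/*Twist1*-HCC libraries 1 to 5 were at -0.18, -0.25, 0.12, 0.09 and -0.23, inside the *MYC*-HCC range. Over all genes tested the same medians lay between -0.08 and 0.05.

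*MYC*-HCC library 3 was the highest of its group for 60 of the 80 genes (75%), against 19.4% of the other genes tested. Library 4 was the lowest of its group for 73 of the 80 (91.25%), against 42.1% of the other genes. In *MYC*/*Twist1*-HCC, library 3 was the highest for 48 of the 80 (60%), against 25.1%. The SD of the log2 values was larger in *MYC*-HCC than in *MYC*/*Twist1*-HCC for 78 of the 80 genes (97.5%), against 59.8% of the other genes. The median SD was 0.54 and 0.27 for the ribosomal protein genes, and 0.38 and 0.33 for the other genes. Without library 4 the median SD in *MYC*-HCC was 0.38 for the ribosomal protein genes and 0.26 for the other genes. These shares describe 10 libraries and genes that vary together, and no test was made on them.

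Rps14, a small subunit protein whose loss in humans is linked to the anemia of the 5q- syndrome, had the widest spread on the log2 scale in *MYC*-HCC among the 16 genes with a mean of 100 FPKM or more. It was at 448, 366, 1025, 162 and 237 FPKM in *MYC*-HCC libraries 1 to 5, and the values in *MYC*/*Twist1*-HCC were 236, 201, 404, 285 and 257 FPKM. Library 3 of *MYC*-HCC was above and library 4 below all other libraries. By contrast Rps4x, an X-linked small subunit protein, stayed between 49.97 and 65.6 FPKM in all 10 libraries, with a log2 difference of -0.01 (95% interval -0.27 to 0.25). Rps14 was chosen after its values were seen.

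Libraries 4 and 5 were the lowest of *MYC*-HCC for 53 of the 80 genes (66.2%), against 17% of the other genes. In 8 genes (10%), among them Rpl38, Rps16 and Rps29, each of libraries 1 to 3 was at least 2 times as high as libraries 4 and 5, against 1.04% of the other genes. Rps29, a zinc finger protein of the small subunit, was at 3.33, 4.80, 5.95, 0.69 and 1.32 FPKM in *MYC*-HCC. It was at 0.90, 1.03, 1.61, 1.71 and 1.64 FPKM in *MYC*/*Twist1*-HCC. All *MYC*/*Twist1*-HCC values were above library 4 and below libraries 1 to 3 of *MYC*-HCC, and libraries 1 and 2 of *MYC*/*Twist1*-HCC were also below library 5 of *MYC*-HCC.

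**Figure D2:**
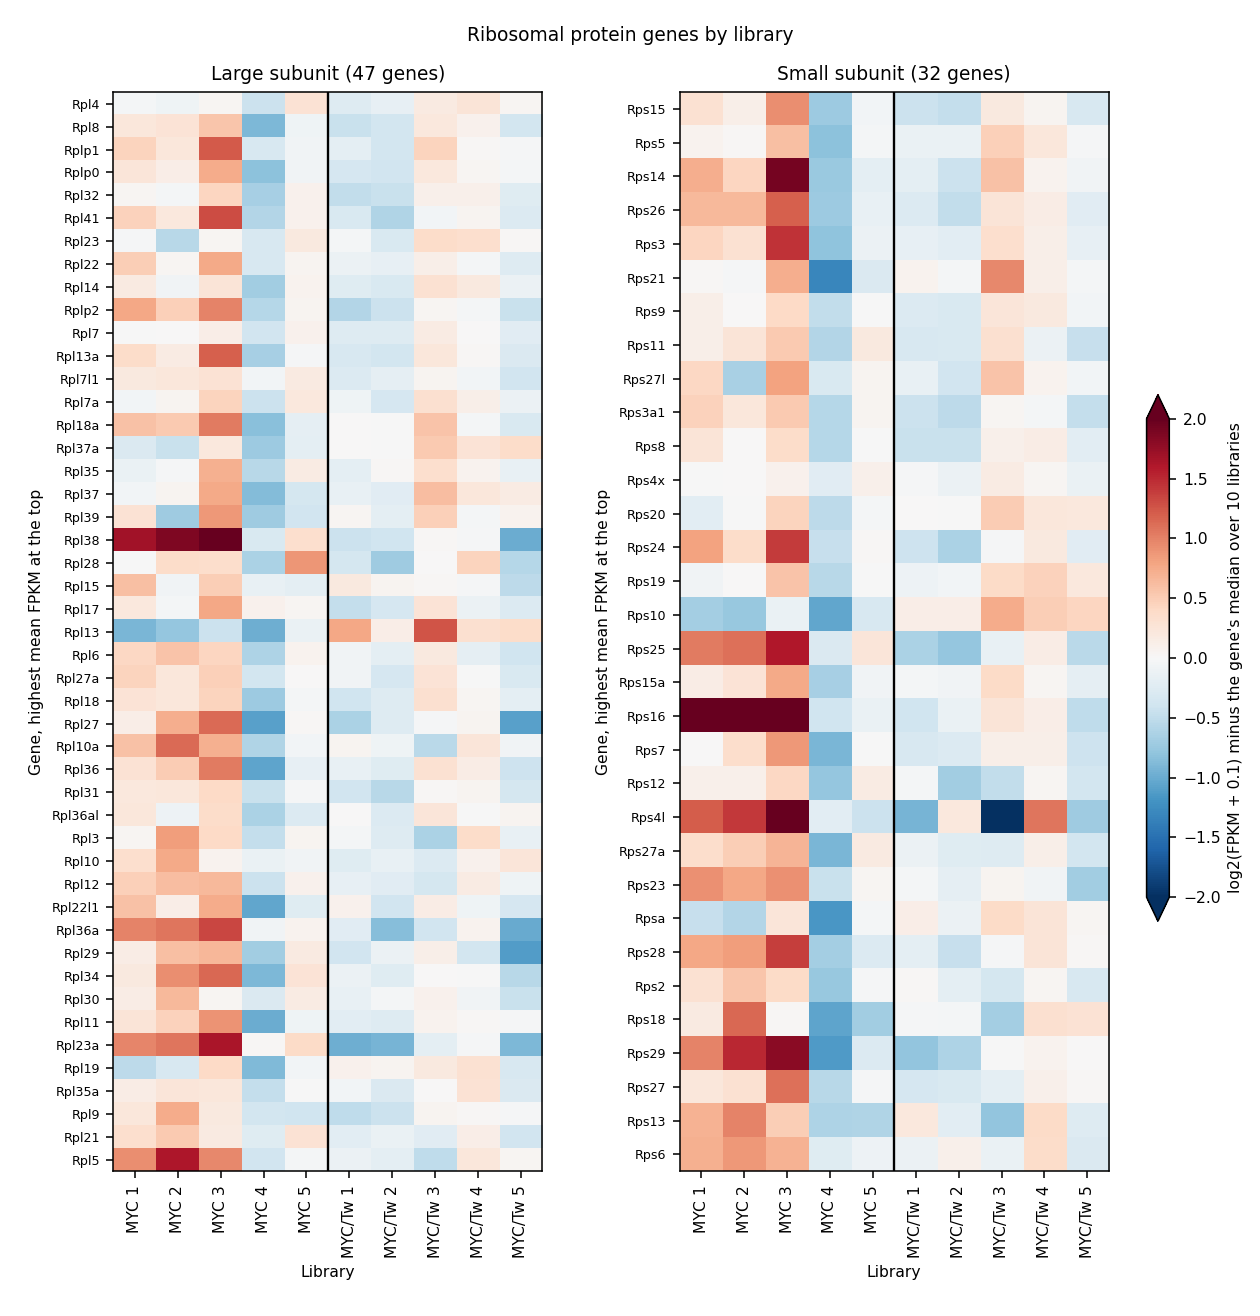
Deviation of log2(FPKM + 0.1) from the gene's median over 10 libraries, for 47 large and 32 small subunit genes (rows, highest mean FPKM at the top) in 5 *MYC*-HCC and 5 *MYC*/*Twist1*-HCC libraries (columns, labelled MYC and MYC/Tw). *MYC*-HCC library 4 is blue in nearly every row, lowest of its group for 73 of all 80 genes tested, and library 3 is the highest for 60, while Rpl13 and Rps10 are blue in most *MYC*-HCC libraries and red in *MYC*/*Twist1*-HCC.

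Leaving out *MYC*-HCC library 4 changed the number of calls. Of all 12146 genes, 526 (4.33%) were then higher and 573 (4.72%) lower in *MYC*/*Twist1*-HCC. Of the 80 ribosomal protein genes, 2 were higher, Rpl13 and Rps10, and 10 were lower, namely Rpl12, Rpl23a, Rpl34, Rpl36a, Rpl38, Rplp2, Rps16, Rps23, Rps25 and Rps27a. The median log2 difference was then -0.45. The adjusted p was 0.032 for Rpl13 and 0.029 for Rps10, where over all alternatives it ranged from 0.0098 to 0.22 and from 0.012 to 0.22. Among the 10, Rplp2, an acidic protein of the stalk that recruits elongation factors, was at 126, 102.6, 146 and 76.99 FPKM in libraries 1, 2, 3 and 5 of *MYC*-HCC and at 49.8 in library 4. Over the *MYC*/*Twist1*-HCC libraries it ranged from 49.5 to 75.65 FPKM, so that without library 4 the groups did not overlap. Without library 3, the median log2 difference over the 80 genes was -0.12, with 0 called. With library quality weights, in which library 4 counted least, 2 ribosomal protein genes were higher and 20 lower, against 8.3% and 12.1% of all genes tested.

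As a share of all FPKM in a library, the 88 genes made up 3.19, 3.56, 4.03, 1.61 and 3.10% in *MYC*-HCC libraries 1 to 5. In *MYC*/*Twist1*-HCC they made up 2.30, 2.56, 3.23, 3.17 and 2.30%. The means were 3.10% ± 0.91 and 2.71% ± 0.46 (SD, n = 5), a difference of -0.38 percentage points. Without *MYC*-HCC library 4 the difference was -0.76, and without library 3 it was -0.15. The large subunit held 57.1% to 65.3% of this sum in *MYC*-HCC and 60.8% to 63.6% in *MYC*/*Twist1*-HCC. Between 47.9% and 52.7% of the sum in each library came from the 5 members of highest level.

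The proteins are present in nearly equal numbers in the ribosome, while the mean FPKM of the 80 genes spanned 798-fold. FPKM is divided by the length of the gene model, which can exceed that of the transcript. The model had 6270 bp and the transcript 640 bases for Rps15a, and both had 499 for Rplp1. The part of model length in the spread of levels was not tested. The highest were Rpl4 at 1175, Rpl8 at 965 and Rplp1 at 957 FPKM, of which Rpl4 lines the exit tunnel, Rpl8 lies near the peptidyl transferase center and Rplp1 belongs to the stalk. The lowest were Rps6 at 1.47, Rpl5 at 1.76 and Rpl21 at 1.91 FPKM. Rps6 is the substrate of the S6 kinases, and Rpl5 binds the 5S RNA with Rpl11 and can inhibit Mdm2.

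Rpl4 was at 1147, 1111, 1211, 875 and 1433 FPKM in *MYC*-HCC, against 984, 1050, 1330, 1407 and 1200 FPKM in *MYC*/*Twist1*-HCC, with a log2 difference of 0.05 (95% interval -0.40 to 0.50). Rps6 was at 2.08, 2.31, 2.04, 1.02 and 1.13 FPKM in *MYC*-HCC, and the values in *MYC*/*Twist1*-HCC were 1.12, 1.33, 1.11, 1.61 and 0.98 FPKM. Libraries 4 and 5 of *MYC*-HCC lay among the *MYC*/*Twist1*-HCC values of Rps6, whose log2 difference was -0.40 (95% interval -0.98 to 0.19).

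The level of a gene went with how much of its transcript is unique. The median share of 50-base windows found in no other gene was 66.5% in the 16 genes at 100 FPKM or more, 42.6% in the 33 from 10 to 100 FPKM and 23.6% in the 31 below 10 FPKM. Spearman's rho across the 80 genes was 0.60 between the unique share and the mean FPKM, and -0.49 between the number of named pseudogenes and the mean FPKM. It was 0.15 between the unique share and the log2 difference between the groups. These are correlations across genes, which share libraries and are not independent replicates. Of the 80 genes, 51 (63.75%) had under 50% unique windows, against 4.59% of other genes tested, and 59 had at least 1 named pseudogene. How the authors' counting treated reads that map to more than one gene is not stated, and its part in these levels was not tested. The 29 genes with at least 50% unique windows had a median log2 difference of -0.18 and 0 called, and library 4 was the lowest of *MYC*-HCC for 25 of them.

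**Figure D3:**
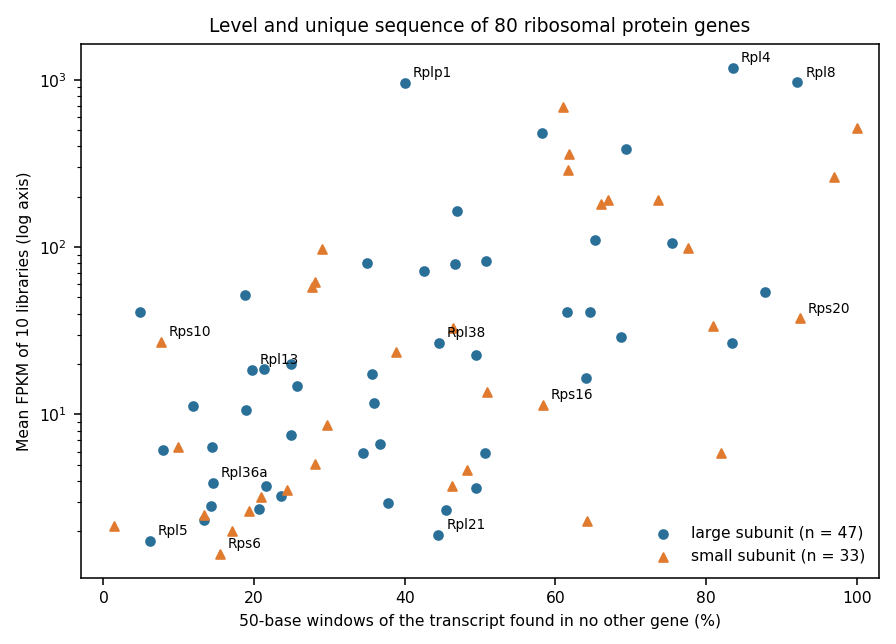
Mean FPKM over 10 libraries (log axis) against the percentage of 50-base windows of the transcript found in no other gene, for 47 large subunit (circles) and 33 small subunit genes (triangles). Rpl4 and Rpl8 lie at the upper right and Rps6 and Rpl5 at the lower left, with rho 0.60 over the 80 genes.

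Of the 31 ribosomal protein pseudogenes tested, 20 had log2 differences above 0 and 11 below 0, while most of the parent genes had differences below 0. The filter, 0.5 FPKM in 5 libraries, can be met by 1 group alone, so these counts favor pseudogenes that differ between the groups. Of 272 named ribosomal protein pseudogenes, 31 passed the filter, and for 14 of these (45.2%) the groups did not overlap, with *MYC*/*Twist1*-HCC above, against 2.35% of all genes tested. Their median log2 difference was 0.94, an unadjusted p under 0.05 was reached by 17 with higher and by 2 with lower values, and 17 had under 25% unique 50-base windows. Rpl36a-ps2 was the 1 that passed the test over all genes, at a log2 difference of 1.81 (adjusted p = 0.033, limma).

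Rpl36a and the sum of its pseudogenes had group means that differed in opposite directions. Rpl36a was at 6.35, 6.67, 8.04, 2.97 and 3.30 FPKM in *MYC*-HCC, against 2.65, 1.70, 2.39, 3.30 and 1.51 FPKM in *MYC*/*Twist1*-HCC. Its 4 named pseudogenes summed to 5.14, 4.11, 9.91, 4.76 and 8.85 FPKM in *MYC*-HCC and to 20.2, 17.9, 21.2, 22.6 and 22.2 FPKM in *MYC*/*Twist1*-HCC. The gene had 14.5% unique 50-base windows and Rpl36a-ps2 had 0%, so the table alone does not say which of them a read came from. For the summed FPKM of gene and pseudogenes the log2 difference was 0.99 (adjusted p = 0.088, limma), the opposite sign to the -1.16 of the gene.

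Rpl10, which lies near the tRNA in the large subunit and completes its maturation, was at 7.20, 9.69, 5.97, 5.19 and 5.43 FPKM in *MYC*-HCC, and the values in *MYC*/*Twist1*-HCC were 4.80, 5.12, 4.71, 6.08 and 6.73 FPKM. Its 6 pseudogenes summed to 4.03, 2.97, 6.51, 9.20 and 19.8 FPKM in *MYC*-HCC and to 28.8, 20.8, 43.6, 32.0 and 41.85 FPKM in *MYC*/*Twist1*-HCC. The groups overlapped for the gene and not for the pseudogenes. With both added, the log2 difference went from -0.26 to 1.38.

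Rpl31 was at 5.69 to 10.3 FPKM in *MYC*-HCC and at 5.27 to 8.10 FPKM in *MYC*/*Twist1*-HCC, while its 22 pseudogenes had means of 16.7 and 60.8 FPKM. Rpl39, a small protein of the exit tunnel, was at 15.7 to 47.4 and at 22.5 to 36.3 FPKM, while its 1 named pseudogene was at 8.52 to 36.3 and at 49.7 to 78.6 FPKM. Of the 30 genes whose pseudogenes reached a mean of 1 FPKM in a group, the summed pseudogenes did not overlap in 11 with *MYC*/*Twist1*-HCC above, and in 1, Rpl19, with it below. Over all genes tested these shares were 2.35% and 1.67%. The cut can be met by 1 group alone, so these counts favor sums that differ between the groups. When the FPKM of each gene and its pseudogenes were summed, the sign of the log2 difference changed in 13 of 59 genes. In 11 of them it went from below to above 0, and 0 of the 80 passed the test. As these FPKM are scaled to separate models, the changes do not show a shift of reads.

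**Figure D4:**
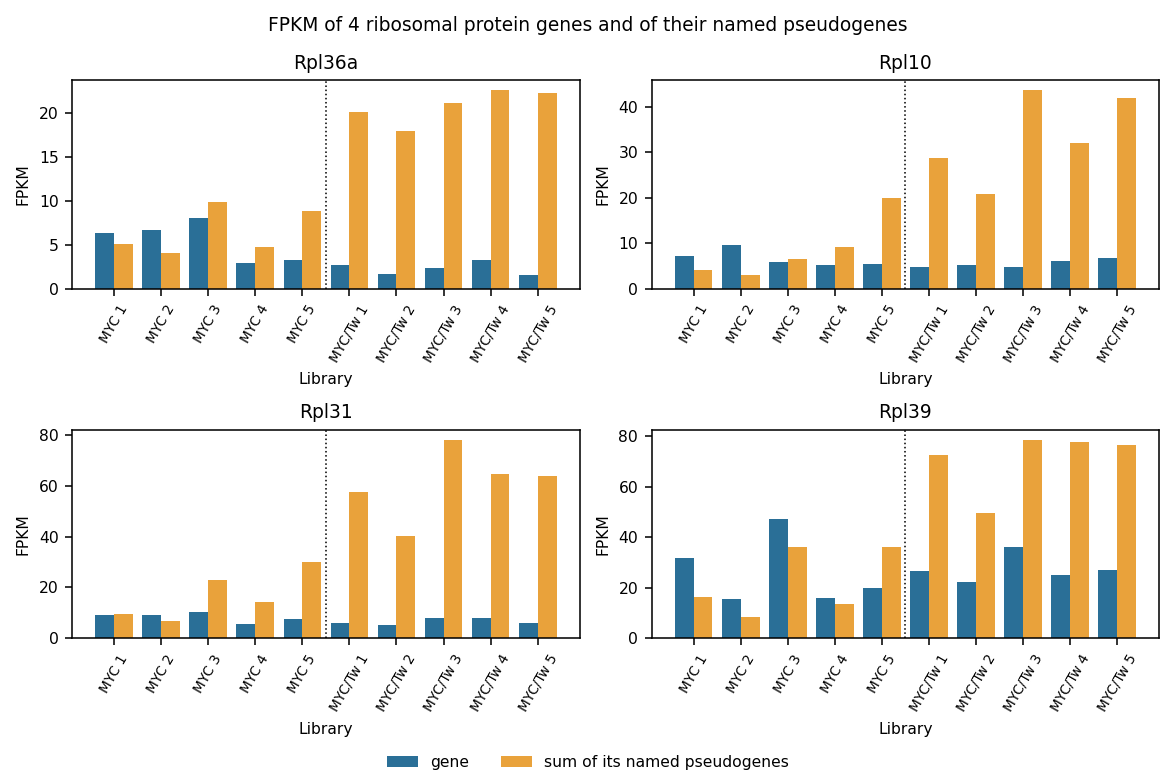
FPKM of Rpl36a, Rpl10, Rpl31 and Rpl39 (blue bars) and of the sum of their named pseudogenes (orange bars) in each of 5 *MYC*-HCC and 5 *MYC*/*Twist1*-HCC libraries (labelled MYC and MYC/Tw, separated by the dotted line). For Rpl36a the pseudogenes are at 4.11 to 9.91 FPKM in *MYC*-HCC and at 17.9 to 22.6 FPKM in *MYC*/*Twist1*-HCC, while the gene is at 2.97 to 8.04 and 1.51 to 3.30 FPKM.

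Several ribosomal proteins have paralogs, which can take their place in the ribosome. The ratio of paralog to core gene within a library was compared between the groups for the 5 pairs in which both genes passed the filter, by exact permutation tests, two-sided, adjusted over the 5 pairs. The smallest p that 5 against 5 libraries allow is 0.0079.

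The log2 ratio of Rpl7l1 to Rpl7 was -0.44, -0.41, -0.48, -0.29 and -0.54 in *MYC*-HCC and -0.64, -0.55, -0.75, -0.69 and -0.78 in *MYC*/*Twist1*-HCC. The groups did not overlap, and the difference of -0.25 had an exact p of 0.0079 (adjusted p = 0.020). It lay between -0.29 and -0.22 when any 1 library was left out. Adding the pseudogenes left it at -0.25, but this sum could hardly change it. The 1 named pseudogene of Rpl7 was at 0.06 to 0.26 FPKM per library, and that of Rpl7l1 at 0 to 0.06 FPKM. Rpl7 had 46.7% unique 50-base windows and shared such windows with 13 other genes. With windows of 100 bases it had 71.8% unique and shared windows with 6 other genes. The effect of such sharing on the ratio was not tested.

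The log2 ratio of Rpl36al to Rpl36a was 0.31, -0.09, 0.12, 0.52 and 0.74 in *MYC*-HCC and 1.33, 1.65, 1.69, 0.99 and 2.13 in *MYC*/*Twist1*-HCC. The difference was 1.24 (exact p = 0.0079, adjusted p = 0.020). Rpl36al itself differed by 0.08 (95% interval -0.35 to 0.52). With the pseudogenes of Rpl36a added to it, the difference in the ratio was -0.90 (exact p = 0.0079, adjusted p = 0.020). Its direction therefore depends on whether the FPKM of the pseudogenes are added. Adding FPKM scaled to separate models is not a reassignment of shared reads, and such a reassignment was not tested.

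The other 3 ratios did not pass the exact permutation test. The log2 ratio of Rpl22l1 to Rpl22 had a mean of -4.26 in *MYC*-HCC and of -4.11 in *MYC*/*Twist1*-HCC, a difference of 0.15 (adjusted p = 0.47). Rps27l, a p53 target, was far above Rps27 in FPKM, with a mean log2 ratio of 5.31 in *MYC*-HCC, and the ratio differed by 0.29 (adjusted p = 0.47). Of the 50-base windows, 1.35% of Rps27 and 77.6% of Rps27l occur in no other gene, so this ratio of levels is uncertain. The ratio of Rps4l to Rps4x differed by -2.06 (adjusted p = 0.17), and by -0.99 without *MYC*-HCC library 3. Rps4l was at 1.80, 2.08, 50.5, 0.61 and 0.51 FPKM in *MYC*-HCC, against 0.33, 0.85, 0.10, 1.63 and 0.40 FPKM in *MYC*/*Twist1*-HCC, so that library 3 stood far above the rest.

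The 8 genes below the filter were at 0.73 FPKM or less in every library. They were the paralogs Rpl10l and Rpl39l, known from the testis, Rpl3l, known from muscle, the genes Rpl6l and Rps12l1, the copies Rps3a2 and Rps3a3, and Rpl24. Rps12l1 was listed at 0 in all 10 libraries. Rpl24, a core protein that bridges the subunits, was at 0.28 to 0.73 FPKM in *MYC*-HCC and at 0.04 to 0.30 FPKM in *MYC*/*Twist1*-HCC, with 18.3% unique 50-base windows.

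Other genes of protein synthesis were taken from lists chosen for this comparison. Of 20 nucleolar and ribosome assembly genes, 0 passed the test over all genes, all 20 had log2 differences below 0 with a median of -0.54, and 14 had lower values at an unadjusted p under 0.05, where 54.1% of all genes tested were below 0 and 8.51% had lower values at that threshold. Ubtf, a factor of ribosomal RNA transcription, had a difference of -0.57 (adjusted p = 0.19), and Bysl, which acts in small subunit assembly, of -0.57 (adjusted p = 0.20). The 6 genes for chaperones of single ribosomal proteins had a median of -0.53, with 0 called. They include Ltv1 at -0.50 and Bccip at -0.57.

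Fau encodes a ribosomal protein fused to a ubiquitin-like domain. It was at 19.8, 24.3, 27.5, 19.1 and 14.2 FPKM in *MYC*-HCC, and the values in *MYC*/*Twist1*-HCC were 11.8, 11.9, 15.9, 14.25 and 12.5 FPKM, with a log2 difference of -0.63 (adjusted p = 0.17). Only library 5 of *MYC*-HCC lay within the other group.

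Of 16 other genes with TOP mRNAs, 0 were called and the median was -0.20. Eef1a1 and Eef2, the elongation factors of highest level, had differences of 0.07 and 0.11, while Naca was at -0.46 and Tpt1 at 0.45, with adjusted p of 0.28 and 0.30 (limma). The 76 mitochondrial ribosomal protein genes tested had a median of -0.36, with 0 called and 74 below 0, and 26 had lower values at an unadjusted p under 0.05, against the same 54.1% and 8.51% of all genes tested. Their library medians ranged from -0.05 to 0.45 in *MYC*-HCC, with library 3 the highest and library 4 the lowest as for the cytosolic genes, and from -0.49 to 0.22 in *MYC*/*Twist1*-HCC. For 10 proliferation genes the median was -0.43, with 0 called.

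**Figure D5:**
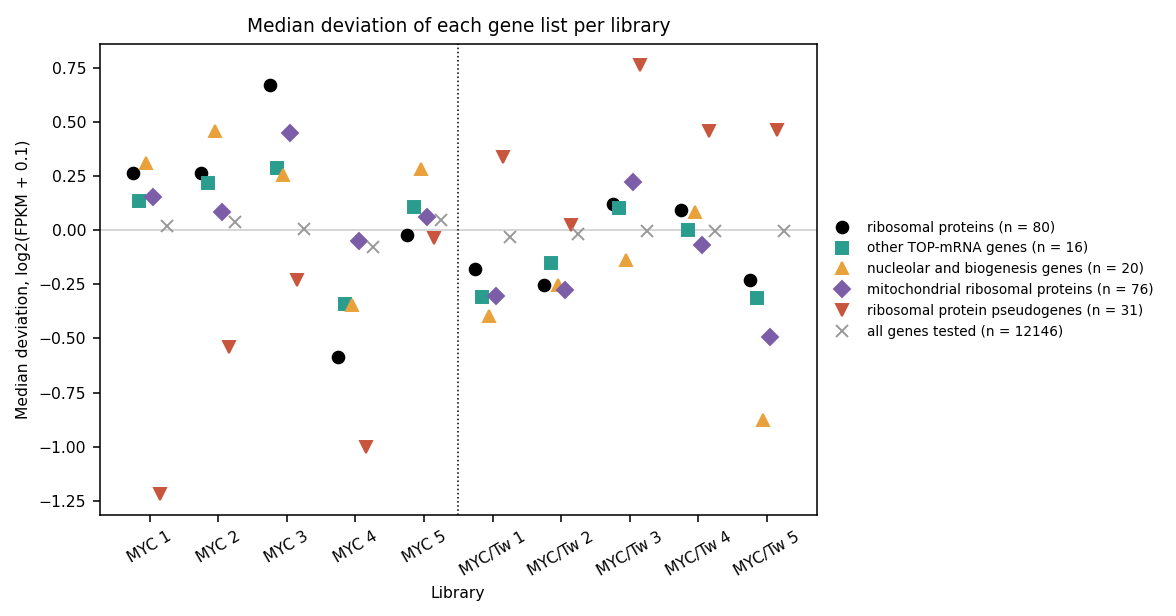
Median deviation of log2(FPKM + 0.1) from each gene's median, per library, for 80 ribosomal protein genes (black circles), 16 other TOP-mRNA genes, 20 nucleolar and assembly genes, 76 mitochondrial ribosomal protein genes, 31 ribosomal protein pseudogenes and 12146 genes tested, with *MYC*-HCC left and *MYC*/*Twist1*-HCC right of the dotted line. Ribosomal proteins range from -0.59 to 0.67 in *MYC*-HCC and from -0.25 to 0.12 in *MYC*/*Twist1*-HCC, while the pseudogenes are at -1.22 to -0.03 and at 0.02 to 0.76.

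Of the marker genes of other cells, 0 passed the test over all genes. A marker low in *MYC*-HCC could pass the filter on the 5 *MYC*/*Twist1*-HCC libraries alone, which favors counts of tested markers with higher values. At an unadjusted p under 0.05, 7.83% of all genes tested had higher values in *MYC*/*Twist1*-HCC. Of 8 neutrophil markers 5 were tested, all 5 had higher values at that threshold, and the 8 summed to 2.66 to 8.63 FPKM in *MYC*-HCC and to 14.45 to 651 FPKM in *MYC*/*Twist1*-HCC. Of 8 erythroid markers 7 were tested, again all 7 with higher values at that threshold, and the sums were 39.0 to 141 and 172 to 2274 FPKM. The 8 hepatocyte markers summed to 1932 to 7947 and to 4745 to 13985 FPKM, with 5 of the 8 past the same threshold. The T and NK cell list had 2 of 4 tested past it. The macrophage and Kupffer cell (8 tested), B and plasma cell (4), endothelial (7), stellate cell and fibroblast (7) and cholangiocyte lists (3) had 0 at an unadjusted p under 0.05 in either direction. No marker of the neutrophil, erythroid and hepatocyte lists was at 0 in all libraries. *MYC*-HCC library 4 had the highest median deviation of the endothelial and of the stellate cell and fibroblast markers, 1.84 and 1.34 log2 units. The part of these cells in the values of the ribosomal protein genes was not tested.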

How the data were processed

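RNA was extracted with the RNeasy kit from flash-frozen tumors and, per the labels, libraries followed the sequencing provider's standard protocols. Per the submitters' notes the authors used Trimmomatic, the aligner STAR, Picard, featureCounts and DESeq2 with the mm10 build, while the paper names RSEM. The deposited values are FPKM that the authors computed per gene and library, and no count table was used here, so no count test was made. Treatment of multi-mapped reads is not stated. Columns not used numbered 0.

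Values were tested as log2(FPKM + 0.1), for genes that reached 0.5 FPKM in 5 or more libraries, with limma 3.58.1 (moderated variances with a trend, two-sided) in R 4.3.3, adjusted by Benjamini-Hochberg over all 12146 genes tested at a threshold of 0.05. Fold changes on this scale understate those of low genes. The fit was tested on simulated data. Depth was estimated from genes with models under 150 bp, whose values came to whole reads. Each gene's shortest transcript of the best annotation level in GENCODE vM21 was split into windows of 50 and 100 bases, and windows found in no other gene were counted as unique. Python 3.11.15 with pandas 2.3.3 and matplotlib 3.10.9 was used.

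The members and lists were chosen with earlier results of these data known. Named are members past the threshold, the 6 higher and 6 lower with the smallest p, the 3 highest and 3 lowest in mean FPKM, paralogs with their core genes, and up to 2 genes in each direction of other lists, and others are named after their values were seen. Genes of this family with near-identical copies are uncertain where reads are shared. Some genes are not reported by name here.

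Alternatives were an added 1 or 0.01, quantile normalization, median-ratio scaling, a filter on a mean of 1 FPKM or none, no trend, quality weights, each library left out, members without paralogs, and, chosen after seeing the data, pseudogenes summed and members with at least 50% unique windows.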

Additional observations from a re-analysis of the deposited data

Results flagged for a closer look

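Rps4l, a paralog of Rps4x, reached 50.52 FPKM in library 3 of *MYC*-HCC, where the other 4 libraries of that group lay between 0.51 and 2.08 FPKM, so that 1 library lay far from the rest. This was the 1 of 72 sets of 5 values checked that had such a library. Chance gives about 1 in 20, or 3.6 sets, so no more sets were flagged than by chance. Rps4x itself was at 62.2 FPKM in that library, against 49.97 to 62.5 FPKM over the other 4, and 82.0% of the 50-base windows of Rps4l occur in no other gene.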

How the results depend on the processing

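The count of ribosomal protein genes called was 0 in all but 2 of 21 alternatives. It was 22 with library quality weights and 0 to 12 when 1 library was left out, the 12 without *MYC*-HCC library 4. The median log2 difference stayed below 0 in all 21, from -0.45 to -0.12 with 1 library left out and from -0.42 to -0.18 otherwise. Over all genes the count of calls was 5 with an added 1, 1 with an added 0.01, 23 with median-ratio scaling, 2477 with quality weights and 1 to 1099 with 1 library left out, 1099 without *MYC*-HCC library 4, 32 without library 5 and 1 without *MYC*/*Twist1*-HCC library 1 or 4. With pseudogenes summed, the log2 difference turned to -0.23 for Rpl19 and to 0.99 for Rpl36a, and the log2 ratio of Rpl36al to Rpl36a to -0.9034. The differences in ratio, with 1 library left out, ranged from 0.01 to 0.21 for Rpl22l1, 0.09 to 0.39 for Rps27l, 1.09 to 1.38 for Rpl36al, -2.59 to -0.99 for Rps4l and -0.29 to -0.22 for Rpl7l1. The difference in the share of summed FPKM ranged from -0.76 to -0.15 percentage points. The cause of the changes with library 4 was not tested. No paired analysis was possible because the 5 *MYC*-HCC columns share one heading and carry no replicate numbers. FPKM with 2 decimals and 5 libraries per group limit the smallest difference that could be detected, and the lowest members rest on few unique windows.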
